A study of Mus musculus with 12 samples.

Results

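The transcripts of the interleukin-6 (IL-6) family were followed across colon RNA of mice with and without myeloid deletion of Tmem173, the gene of STING, and with and without dextran sulfate sodium (DSS) colitis. The 9 genes are the ligands Il6, Il11, Lif and Osm and the receptor chains Il6ra, Il6st, Il11ra1, Lifr and Osmr. They were taken by gene name from the deposited table, which lists 54532 genes, and every one of the 9 was found. All 9 were among the 24102 genes that reached 0.1 FPKM (fragments per kilobase of gene length, scaled to library size) in at least 3 of 12 libraries. Il6 and Il11 met that minimum only through the colitic libraries, so that filter favours a rise of both with DSS. The 4 groups, each of 3 libraries, cross 2 genotypes (Tmem173fl/fl and Tmem173iΔmye, both on the C57BL/6N background) with 2 conditions (untreated and colitic). Tmem173fl/fl mice, which the labels call WT, carry floxed Tmem173 alleles without Cre. Tmem173iΔmye mice, labelled CRE, carry in addition a tamoxifen-activated Cre (Lyz2-Creert2) driven from Lyz2, a gene of macrophages, monocytes and neutrophils. All groups share the floxed alleles and 5 tamoxifen injections given as adults at 6 to 8 weeks of age, and the colitic mice were given DSS, an agent toxic to colon epithelium, over 7 days. The replicate numbers were 1, 2 and 3, except for colitic Tmem173iΔmye, which holds 1, 2 and 5. The sources do not tie each library to a named animal, so p-values measure the spread between these samples only.

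Cytokines of the IL-6 family signal through receptor complexes that share gp130, the product of Il6st. IL-6 and IL-11 first bind a receptor of their own (Il6ra, Il11ra1), which then joins gp130, whereas leukaemia inhibitory factor (Lif) pairs gp130 with the Lif receptor and oncostatin M (Osm) in the mouse mainly pairs it with the Osm receptor. The paired chains activate JAK kinases and the transcription factor STAT3, and STAT3 induces its own inhibitor Socs3. In injured intestine, myeloid and stromal cells are known sources of these cytokines, and epithelium, fibroblasts and endothelium are among the cells that respond.

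The libraries held 13823237 to 18718915 counts. Colon epithelium markers were present in all libraries, with summed levels of 3586 to 8589 FPKM over 9 genes. The sums were 6047 to 8589 FPKM in untreated and 3586 to 5610 FPKM in colitic Tmem173fl/fl mice. In Tmem173iΔmye mice they were 7407 to 8145 FPKM untreated and 4758 to 7120 FPKM in colitis. Tmem173 averaged 18.2 ± 1.37 FPKM in colitic Tmem173fl/fl and 14.7 ± 5.44 FPKM in their colitic Tmem173iΔmye counterparts (mean ± SD, n = 3). The ranges overlapped, and a level in RNA of the whole colon does not measure deletion in myeloid cells alone. Xist, transcribed from the inactive X chromosome of females, was at 67.2 to 100 FPKM in replicate 3 of both untreated groups and in replicate 5 of the colitic Tmem173iΔmye group, and at no more than 0.0308 FPKM in the other 9 libraries. Markers of the exocrine pancreas summed to 7058 FPKM in replicate 1 of colitic Tmem173fl/fl, 7610 FPKM in replicate 1 of colitic Tmem173iΔmye and at most 3459 FPKM elsewhere. Their part in the results was not tested beyond the fits given in the closing section.

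Upstream sequence was available from RefSeq (GRCm38.p6) for 8 of the 9 genes, in 11 windows that run from 250 bases before to 50 bases after a transcript start. The 250 bases before the start are shown for 3 ligands, because Il6 and Il11 changed most with colitis and Lif is the ligand of the untreated colon. Capitals mark matches, on either strand, to the letters searched for NF-kB (GGANTTTCC), AP-1 (TGANTCA) and C/EBP (TTGCNNAA).
Il6, chr5:30012864-30013113, plus strand: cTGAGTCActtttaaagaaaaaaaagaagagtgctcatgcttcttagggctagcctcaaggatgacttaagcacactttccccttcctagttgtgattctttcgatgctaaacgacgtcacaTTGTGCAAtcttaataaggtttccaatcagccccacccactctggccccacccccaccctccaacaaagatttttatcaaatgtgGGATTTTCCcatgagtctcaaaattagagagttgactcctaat
Il11, chr7:4778142-4778391, minus strand: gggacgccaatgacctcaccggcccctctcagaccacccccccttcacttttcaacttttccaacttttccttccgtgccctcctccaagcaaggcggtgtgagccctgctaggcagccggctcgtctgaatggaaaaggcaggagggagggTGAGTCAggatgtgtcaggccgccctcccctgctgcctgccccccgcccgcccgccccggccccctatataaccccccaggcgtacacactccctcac
Lif, chr11:4257318-4257567, plus strand: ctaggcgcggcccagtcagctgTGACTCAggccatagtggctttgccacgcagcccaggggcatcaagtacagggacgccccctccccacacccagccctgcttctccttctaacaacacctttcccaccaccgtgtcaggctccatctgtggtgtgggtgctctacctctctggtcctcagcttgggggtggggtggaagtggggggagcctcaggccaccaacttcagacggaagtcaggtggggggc
In the Il6 window the AP-1, C/EBP and NF-kB letters began at -249, -128 and -43 from the start, whereas Il11 held 1 AP-1 match at -98 and Lif 1 at -228. The only other match among the members lay in Osmr, an AP-1 match 4 bases into the transcript. Of all 32851 windows of this length, 7.81% held the AP-1 letters, 10.8% those of C/EBP and 1.25% those of NF-kB. Letters for STAT (TTCNNNGAA), found in 8.30% of all windows, and for a cyclic AMP response element (TGACGTCA), found in 1.79%, were in none of the 11. A second Il11 window, upstream of a start at the 5′ end of the annotated gene, held no match. These matches are a description of the letters and not of bound sites.

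In the untreated colon the receptor chains Il6st and Il11ra1 were highest and the ligands Osm, Il11 and Il6 lowest. Il6st was the highest of the 9 in untreated Tmem173fl/fl mice at 11.8 ± 1.34 FPKM (SD, n = 3), followed by Il11ra1 at 5.997 ± 0.670 FPKM, and neither range overlapped that of the next gene. Lif, Osmr, Lifr and Il6ra came next at 2.31, 1.49, 1.43 and 1.23 FPKM, and the ranges of neighbours in this order overlapped. Osm, Il11 and Il6 averaged 0.147, 0.112 and 0.0360 FPKM, each overlapping the next. In untreated Tmem173iΔmye mice the same order held except that Lifr and Osmr, which overlapped, changed places.

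DSS raised most of the family in Tmem173fl/fl mice. Of the 9 genes, 8 passed an adjusted p under 0.05 with a log2 fold change of at least 1, all upwards, where 14.9% of all genes tested were called higher and 7.61% lower (22.5% in either direction). Leaving out Il6 and Il11, which met the FPKM minimum only through the colitic libraries, 6 of 7 were called and the median log2 fold change of the 7 was 1.92, against 0.03 for all genes. The untreated and colitic ranges did not overlap for 8 of the 9, with Lif the exception, where 25.1% of all genes were higher and 23.6% lower without overlap. Cell type markers moved in the same comparison, with 7 of 9 colon epithelium markers called lower and 1 higher. Called higher were 8 of 8 neutrophil, 7 of 8 fibroblast, 7 of 8 monocyte and macrophage and 5 of 5 endothelial markers. The neutrophil marker Cxcr2 averaged 0.0295 FPKM in untreated Tmem173fl/fl and 0.0194 FPKM in untreated Tmem173iΔmye mice. It met the FPKM minimum only through the colitic libraries, so its call is no support for a rise of that list. How the other markers met the minimum is not given here. Also called higher were 5 of 6 enteric neuron and glia and 5 of 5 red blood cell markers. No T cell, B and plasma cell or smooth muscle marker was called. The part of these cells in the rise was not tested.

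**Figure D1:**
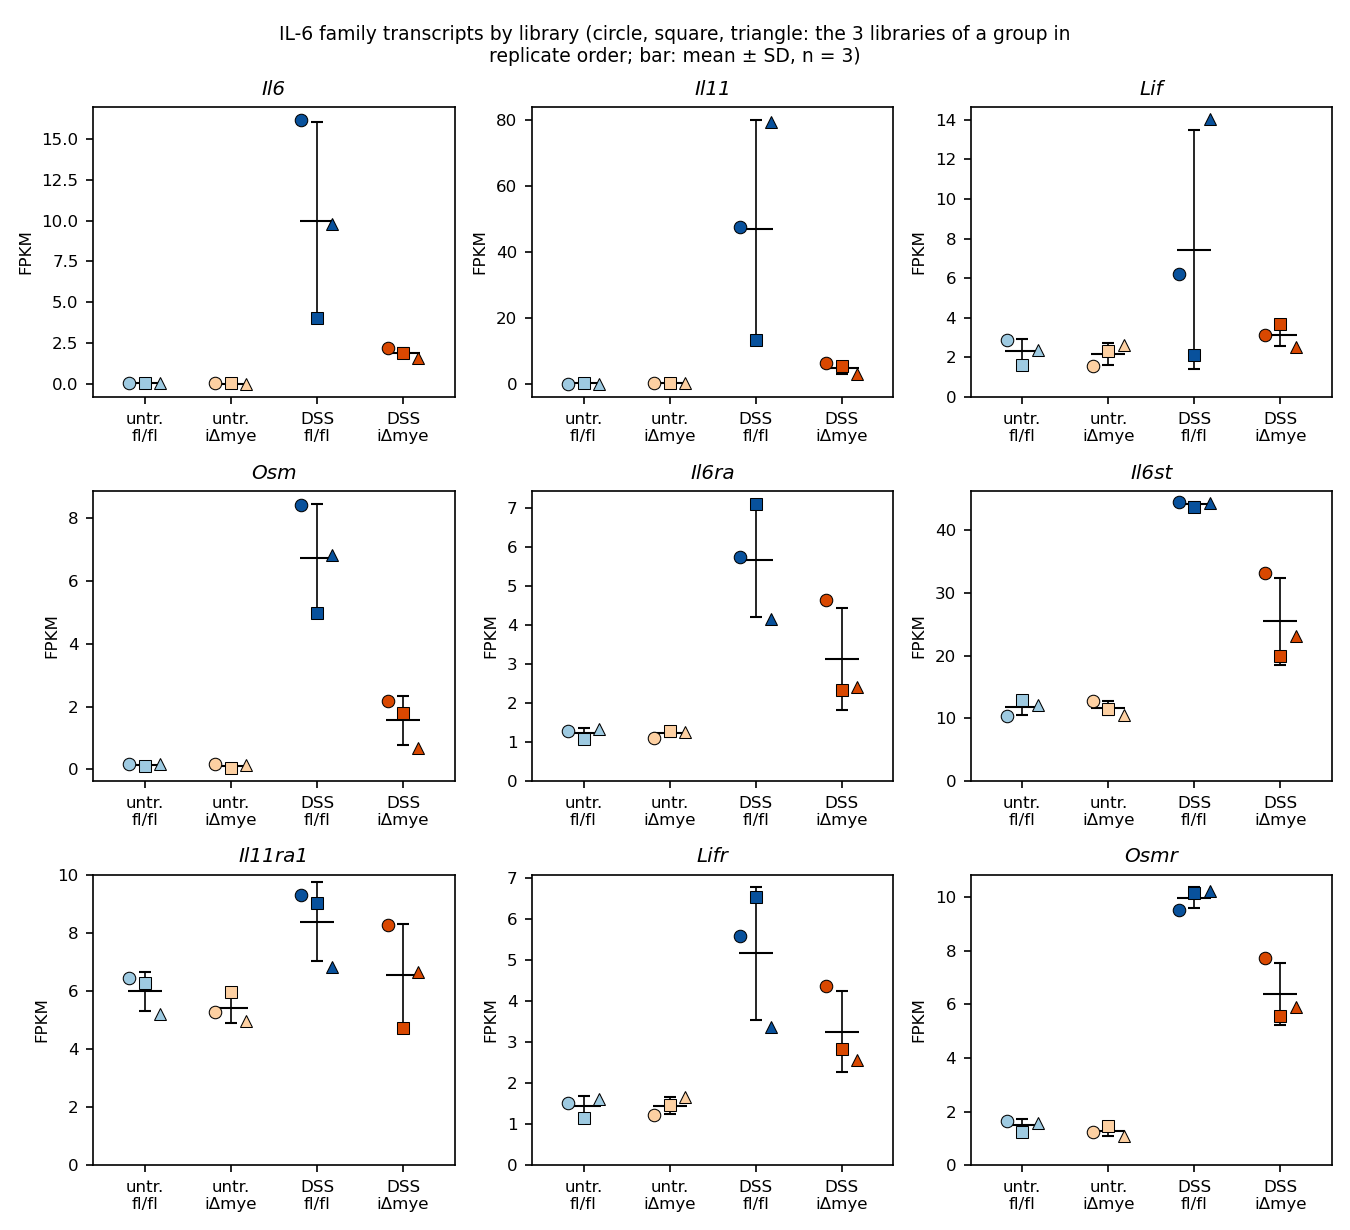
FPKM of each gene in every library, by group (untr., untreated; DSS, colitic; fl/fl, Tmem173fl/fl; iΔmye, Tmem173iΔmye). Circles, squares and triangles are the 3 libraries of a group in replicate order and bars are the mean ± SD. Il6st and Osmr are nearly equal in the 3 colitic Tmem173fl/fl libraries, whereas Il11 runs from 13.4 to 79.4 FPKM there.

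Il6 encodes IL-6, an inducer of acute-phase proteins and of Th17 cells (ENSMUSG00000025746, GRCm38 chr5:30013114-30019981, plus strand). Its counts were 1, 1 and 2 in untreated Tmem173fl/fl libraries 1, 2 and 3 and 1, 1 and 0 in those of untreated Tmem173iΔmye, so the untreated colon was at or under a floor of 3 counts per library in both genotypes. In colitic Tmem173fl/fl mice the level was 16.2, 4.06 and 9.80 FPKM in replicates 1, 2 and 3, and in colitic Tmem173iΔmye mice it was 2.23, 1.90 and 1.61 FPKM in replicates 1, 2 and 5. Every colitic library was far above every untreated one, and each colitic Tmem173iΔmye library was below each colitic Tmem173fl/fl library. Summed counts rose 297-fold, scaled to library totals, with DSS in Tmem173fl/fl mice (95% exact conditional interval 116 to 1090) and 119-fold in Tmem173iΔmye mice (32.5 to 989). These intervals cover counting error only. The edgeR adjusted p for the DSS effect was 1.78e-05 and 0.000814, respectively.

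Il11 encodes IL-11, a cytokine produced by fibroblasts and other stromal cells (ENSMUSG00000004371, chr7:4772373-4782857, minus strand). Untreated libraries held 2, 8 and 0 counts in Tmem173fl/fl and 6, 3 and 3 in Tmem173iΔmye mice. With colitis the level reached 47.6, 13.4 and 79.4 FPKM in Tmem173fl/fl replicates 1, 2 and 3, against 6.15, 5.31 and 2.86 FPKM in Tmem173iΔmye replicates 1, 2 and 5. The highest and lowest Tmem173fl/fl libraries differed widely, and even the lowest stood above all 3 Tmem173iΔmye libraries. Summed counts rose 433-fold (235 to 903) in Tmem173fl/fl and 40.7-fold (23.0 to 79.3) in Tmem173iΔmye mice, with edgeR adjusted p of 4.68e-05 and 0.000769. Replicate 2 held 8 of the 10 untreated Tmem173fl/fl counts, and the fitted log2 fold change of 8.69 in Tmem173fl/fl mice was 10.30 without it, 9.11 without colitic replicate 2, 8.07 without untreated replicate 3 and 8.06 without colitic replicate 3, so the fold is poorly fixed beyond the counting interval.

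Osm encodes oncostatin M, a cytokine of neutrophils, macrophages and activated T cells that acts on stroma and epithelium (ENSMUSG00000058755, chr11:4236420-4241026, plus strand). Untreated libraries held 5, 4 and 6 counts in Tmem173fl/fl and 7, 2 and 5 in Tmem173iΔmye mice. Colitic levels were 8.41, 4.99 and 6.82 FPKM in Tmem173fl/fl replicates 1, 2 and 3 and 2.19, 1.81 and 0.678 FPKM in Tmem173iΔmye replicates 1, 2 and 5. Both genotypes rose above their untreated libraries without overlap, and the colitic genotypes did not overlap either. The rise in summed counts was 50.6-fold (30.5 to 90.8) in Tmem173fl/fl and 12.8-fold (7.39 to 23.9) in Tmem173iΔmye mice, with edgeR adjusted p of 2.54e-06 and 0.0176.

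Lif, which lies 16530 bases from Osm on chromosome 11 and encodes leukaemia inhibitory factor, was the ligand with the most untreated RNA (ENSMUSG00000034394, chr11:4257557-4272514, plus strand). Its untreated level was 2.89, 1.64 and 2.40 FPKM in Tmem173fl/fl and 1.55, 2.30 and 2.64 FPKM in Tmem173iΔmye mice. Colitic levels were 6.23, 2.10 and 14.02 FPKM in Tmem173fl/fl replicates 1, 2 and 3 and 3.14, 3.67 and 2.55 FPKM in Tmem173iΔmye replicates 1, 2 and 5. Replicate 2 of colitic Tmem173fl/fl lay inside the untreated range, and replicate 3 was highest. The log2 fold change with DSS in Tmem173fl/fl mice was 1.70 (SE 0.54, edgeR adjusted p 0.0328), but it was 0.85 with an adjusted p of 0.124 without replicate 3 of the colitic group. The call was also lost without any 1 of the untreated libraries, at log2 fold changes of 1.49 to 1.89. In Tmem173iΔmye mice the change was 0.51 (SE 0.29, edgeR adjusted p 0.439).

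The ligand mixture changed with these levels. Lif made up 80.2% to 93.4% of the summed FPKM of the 4 ligands in the 6 untreated libraries, and the sums were 1.94 to 3.16 FPKM. In colitic Tmem173fl/fl mice Il11 held 60.7%, 54.5% and 72.2% of sums of 78.4, 24.5 and 110 FPKM, and Lif held 7.94% to 12.7%. Colitic Tmem173iΔmye libraries had sums of 13.7, 12.7 and 7.69 FPKM, of which Il11 held 44.9%, 41.9% and 37.1% and Lif 22.9%, 28.9% and 33.1%. Thus Il11 led in all 6 colitic libraries, with a lower share and a higher Lif share in each Tmem173iΔmye library than in any colitic Tmem173fl/fl library. With 3 libraries in each group an exact permutation test cannot go below 0.1, and none was run on the shares.

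**Figure D2:**
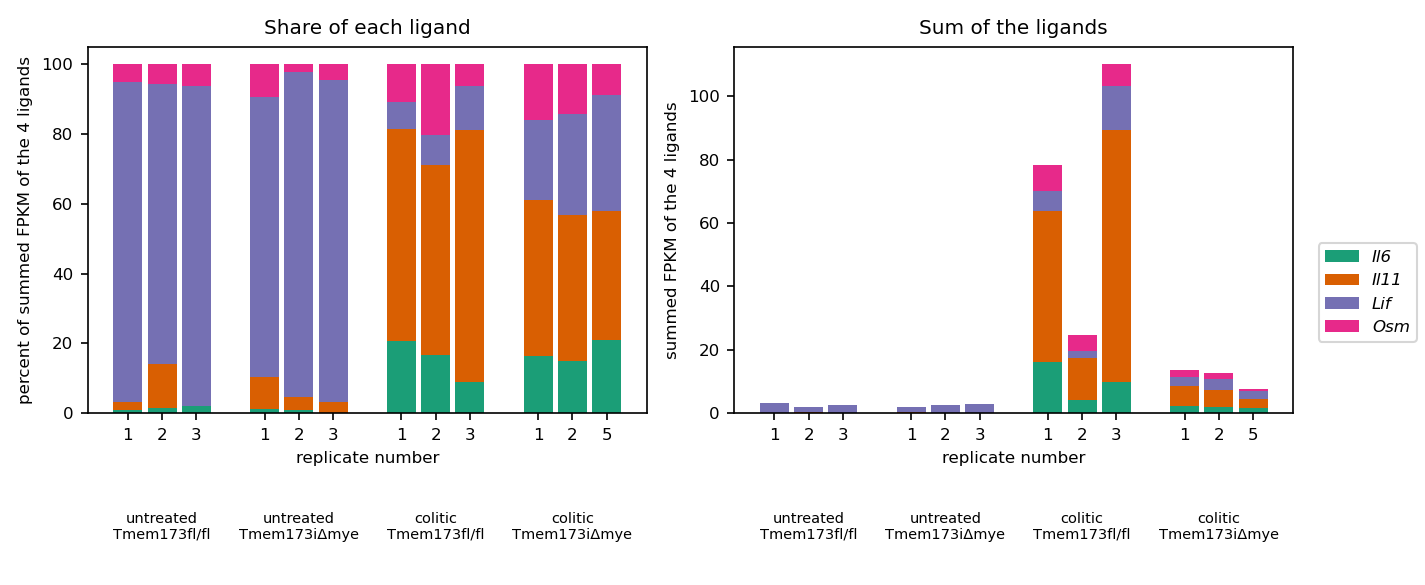
Share of each ligand in the summed FPKM of Il6, Il11, Lif and Osm (left, percent) and the sum itself (right, FPKM) in each library, with replicate numbers under the bars. Lif fills most of each untreated bar, Il11 is the largest segment of each colitic bar, and sums are 24.5 to 110 FPKM in colitic Tmem173fl/fl against 7.69 to 13.7 FPKM in colitic Tmem173iΔmye mice.

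Among the receptors, Il6st, which encodes the shared signalling chain gp130, had the highest level in every group (ENSMUSG00000021756, chr13:112464070-112510086, plus strand). It was at 10.3, 12.9 and 12.1 FPKM in untreated Tmem173fl/fl and 12.8, 11.5 and 10.6 FPKM in untreated Tmem173iΔmye mice. Colitic Tmem173fl/fl libraries were at 44.4, 43.6 and 44.3 FPKM and colitic Tmem173iΔmye libraries at 33.2, 19.98 and 23.1 FPKM. All colitic libraries were above all untreated ones, and all colitic Tmem173iΔmye libraries were below the Tmem173fl/fl ones. The log2 fold change with DSS was 1.92 (SE 0.15, edgeR adjusted p 9.95e-06) in Tmem173fl/fl and 1.11 (SE 0.23, edgeR adjusted p 0.0356) in Tmem173iΔmye mice.

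Osmr, the signalling partner of gp130 for oncostatin M, rose most among the receptors (ENSMUSG00000022146, chr15:6813577-6874969, minus strand). Untreated levels were 1.65, 1.25 and 1.58 FPKM in Tmem173fl/fl and 1.23, 1.45 and 1.09 FPKM in Tmem173iΔmye mice. Colitic levels were 9.53, 10.2 and 10.3 FPKM in Tmem173fl/fl and 7.73, 5.57 and 5.89 FPKM in Tmem173iΔmye mice. Here too the untreated, colitic Tmem173iΔmye and colitic Tmem173fl/fl libraries did not overlap, in that rising order. DSS changed Osmr by 2.76 (SE 0.15, edgeR adjusted p 1.62e-06) on the log2 scale in Tmem173fl/fl and by 2.33 (SE 0.22, edgeR adjusted p 0.000769) in Tmem173iΔmye mice.

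Lifr, the receptor chain for Lif, lies 215644 bases from Osmr (ENSMUSG00000054263, chr15:7090614-7197489, plus strand). It was at 1.51, 1.15 and 1.62 FPKM in untreated Tmem173fl/fl, 1.23, 1.45 and 1.65 FPKM in untreated Tmem173iΔmye, 5.57, 6.54 and 3.37 FPKM in colitic Tmem173fl/fl and 4.37, 2.82 and 2.56 FPKM in colitic Tmem173iΔmye mice. Il6ra, the binding chain for IL-6, was at similar levels (ENSMUSG00000027947, chr3:89864059-89913196, minus strand). It was at 1.28, 1.08 and 1.34 FPKM, 1.11, 1.29 and 1.26 FPKM, 5.73, 7.09 and 4.15 FPKM, and 4.63, 2.32 and 2.41 FPKM in the same 4 groups. For both genes the colitic libraries were above the untreated ones in each genotype, the colitic genotypes overlapped, and replicate 2 was the highest and replicate 3 the lowest of the colitic Tmem173fl/fl libraries, the reverse of Lif. The log2 fold changes with DSS were 1.87 (SE 0.25) for Lifr and 2.22 (SE 0.21) for Il6ra in Tmem173fl/fl mice, with edgeR adjusted p of 0.000292 and 4.09e-05. In Tmem173iΔmye mice they were 1.15 (SE 0.25) and 1.34 (SE 0.29), with edgeR adjusted p of 0.0462 and 0.0471.

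Il11ra1, the binding chain for IL-11, moved least (ENSMUSG00000073889, chr4:41699989-41769474, plus strand). It was at 6.47, 6.30 and 5.23 FPKM and 5.29, 5.97 and 4.96 FPKM in untreated Tmem173fl/fl and Tmem173iΔmye mice. The colitic values were 9.32, 9.05 and 6.84 FPKM in Tmem173fl/fl and 8.27, 4.72 and 6.68 FPKM in Tmem173iΔmye mice. DSS gave a log2 fold change of 0.51 (SE 0.17, edgeR adjusted p 0.0377) in Tmem173fl/fl mice, which is under the size needed for a call, and 0.26 (SE 0.24, edgeR adjusted p 0.658) in Tmem173iΔmye mice. Its annotated span overlaps 6 other genes of the table, and a near-identical copy, Il11ra2, exists in the mouse, so its counts are uncertain. The span of Il6ra overlaps 1 gene on the other strand, and the sources used here do not state whether strand was used in counting.

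The rise was also seen in Tmem173iΔmye mice, where 7 of the 9 genes were called higher against 1.48% of all genes, with 0.597% lower and 2.08% in either direction. Lif and Il11ra1 were not called. Leaving out Il6 and Il11 for the same reason, 5 of 7 were called and the median was 1.15 on the log2 scale, against 0.02 for all genes. The ranges of 7 of the 9 did not overlap, where 12.1% of all genes were higher and 9.25% lower without overlap. In this comparison 5 of 8 neutrophil, 2 of 8 fibroblast, 2 of 8 monocyte and macrophage and 2 of 6 enteric neuron and glia markers were called higher. The 5 neutrophil markers include Cxcr2, which met the FPKM minimum only through the colitic libraries. Of the 9 colon epithelium markers 1 was called lower, and the part of these cells was not tested. Among the 9 family genes, the calls of Il6, Il11 and Osmr were kept when any 1 library was left out. Those of Osm, Il6st, Il6ra and Lifr were lost without any 1 of the untreated Tmem173iΔmye libraries and without replicate 1 of the colitic ones, which left 3 members called, and without colitic replicate 2 those of Il6ra and Lifr were lost. Without colitic replicate 5 all 7 were called.

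Before DSS the genotypes showed no difference in the family that the test could call. Of the 9 genes, 0 were called by edgeR, DESeq2 or limma and 0 had an unadjusted edgeR p under 0.05, where 0.0% of all genes were called by edgeR, 720 genes had an unadjusted p under 0.05 and DESeq2 called 8 genes. The log2 fold changes of Lif, Il6ra, Il6st, Il11ra1, Lifr and Osmr lay between -0.25 and 0.02, with SE of 0.15 to 0.26. For Il11 (0.08, SE 1.04) and Osm (-0.26, SE 0.76) the SE were large, so a difference of a log2 unit was not detectable at this depth, and no fold is given for Il6, which was at the floor in both genotypes. Of the other 8 genes, 0 had ranges that did not overlap, against 3.5% of all genes lower and 3.78% higher without overlap.

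In colitis, Il11, Il6 and Osm were lower in Tmem173iΔmye than in Tmem173fl/fl mice. Il11 fell by 3.27 on the log2 scale (SE 0.59, edgeR adjusted p 0.0300), Il6 by 2.36 (SE 0.46, edgeR adjusted p 0.0346) and Osm by 2.09 (SE 0.43, edgeR adjusted p 0.0406). In mean FPKM, colitic Tmem173fl/fl mice had 9.81-fold more Il11, 5.24-fold more Il6 and 4.32-fold more Osm. These 3 of 9 calls compare with 1.99% of all genes called lower, 0.822% higher and 2.81% in either direction. The other 6 genes were lower without passing the test. Their log2 fold changes were -1.22 for Lif (SE 0.55, edgeR adjusted p 0.260), -0.83 for Il6ra (SE 0.32, 0.190), -0.77 for Il6st (SE 0.23, 0.114), -0.64 for Lifr (SE 0.30, 0.268), -0.61 for Osmr (SE 0.18, 0.106) and -0.33 for Il11ra1 (SE 0.25, 0.497). The ranges of 5 genes, Il6, Il11, Osm, Il6st and Osmr, did not overlap between the genotypes, where 15.8% of all genes were lower and 10.8% higher without overlap. The median of the 9 was -0.83, against 0.02 for all genes.

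**Figure D3:**
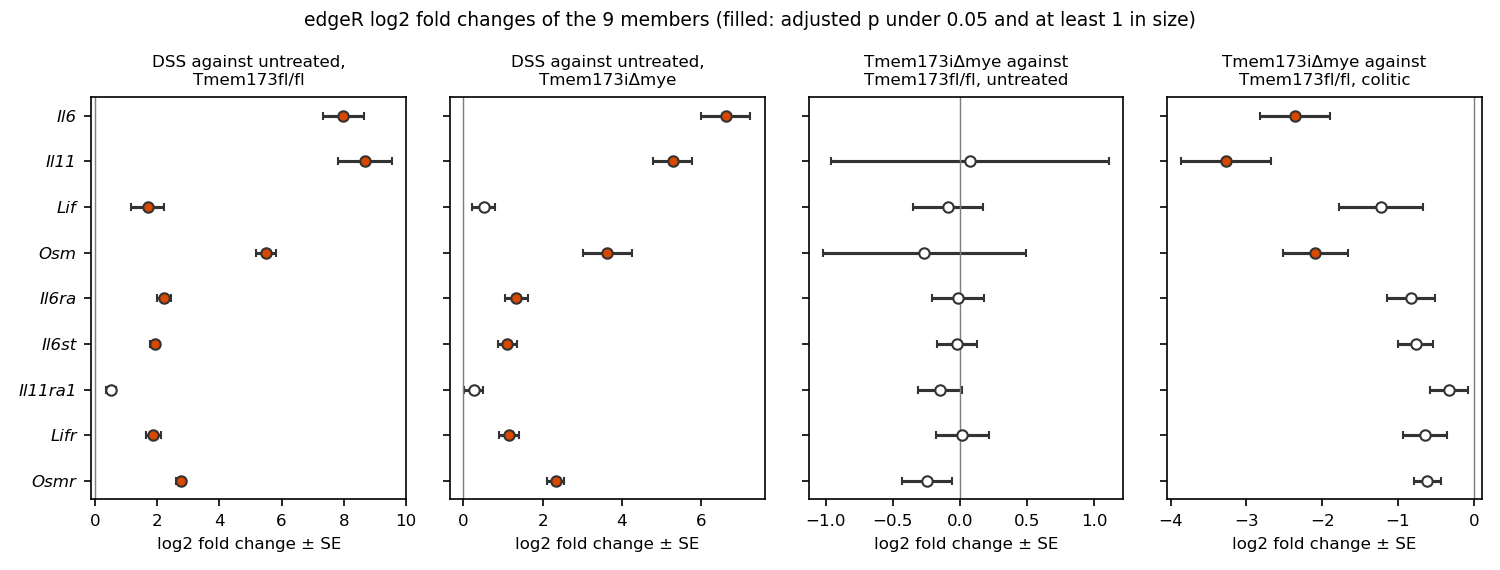
Log2 fold change with its SE for each gene in the DSS comparison of each genotype and the genotype comparison of untreated and colitic mice. Filled points passed an edgeR adjusted p under 0.05 and a size of at least 1, and Il6 is left out of the untreated genotype comparison because it was at the floor. The filled points are 8, 7, 0 and 3 of the 9.

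These 3 calls rest on few libraries. With all 6 colitic libraries but replicate 1 of Tmem173fl/fl, replicate 3 of Tmem173fl/fl or replicate 2 of Tmem173iΔmye, 0 of the 9 were called, although the directions did not change. Without replicate 2 of Tmem173fl/fl only Il6 and Il11 were called, without replicate 5 of Tmem173iΔmye only Osm, and without its replicate 1 these 3 together with Il6ra (-1.24) and Il6st (-1.01). Over these 6 omissions Il11 ranged from -3.70 to -2.65, Il6 from -2.73 to -1.81 and Osm from -2.42 to -1.73 on the log2 scale. limma on log2(FPKM + 0.1) called 0 of the 9 in this comparison. With a covariate for pancreas markers, chosen after the data were seen, edgeR also called 0, at -3.17 for Il11 (adjusted p 0.0602), -2.15 for Il6 (0.107) and -1.68 for Osm (0.0656).

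**Figure D4:**
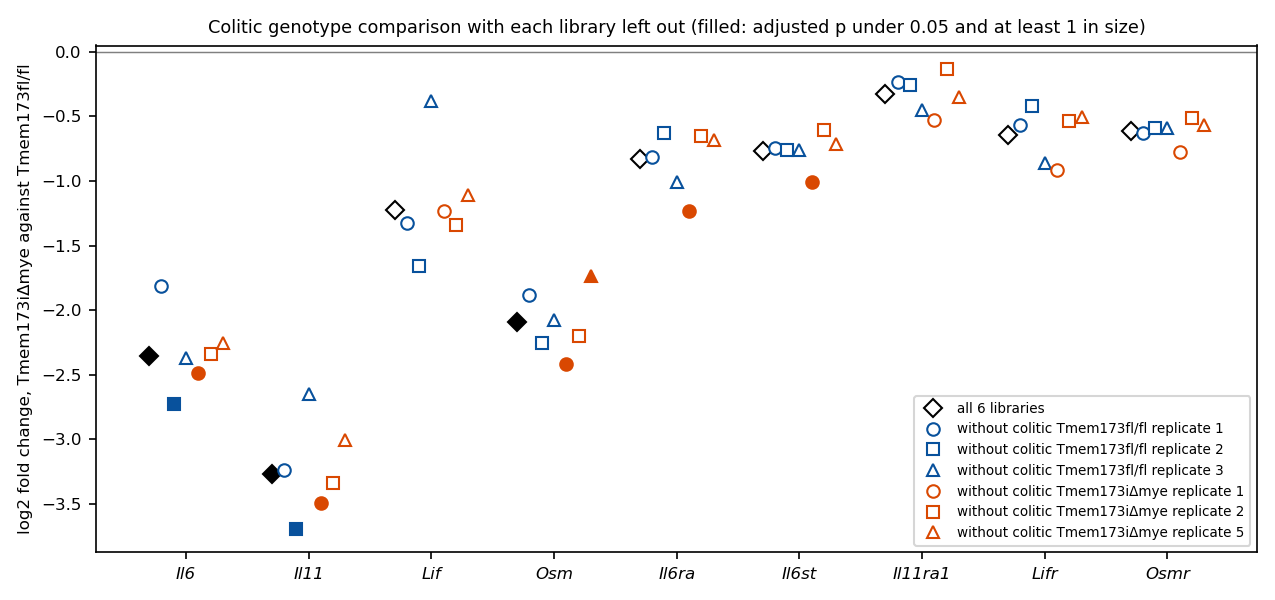
Log2 fold change of each gene between colitic Tmem173iΔmye and Tmem173fl/fl mice with all 6 libraries (diamonds) and with each library left out in turn (blue, a Tmem173fl/fl library; orange, a Tmem173iΔmye library). Filled symbols passed the same threshold. All points lie below 0, and Lif moves most, to -0.39 without replicate 3 of Tmem173fl/fl.

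Whether the DSS effect itself differed between genotypes was asked with an interaction term over the 12 libraries. Of the 9 genes, 0 were called by edgeR or DESeq2, against 2.55% of all genes (1.61% with a lower and 0.934% with a higher effect in Tmem173iΔmye mice), and 4 (Il11, Osm, Il6st and Il6ra) had an unadjusted edgeR p under 0.05. The differences in log2 DSS effect, Tmem173iΔmye minus Tmem173fl/fl, were -3.34 for Il11 (SE 1.31, edgeR adjusted p 0.200), -1.81 for Osm (SE 0.74, 0.215), -0.81 for Il6ra (SE 0.37, 0.268) and -0.73 for Il6st (SE 0.26, 0.157). For Il6, with 6 counts in all untreated libraries, the SE of 1.58 exceeded the estimate of -1.31. A difference in DSS effect thus did not pass the test for any of the 9.

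Markers of several cell types that make or sense these cytokines moved with the colitic genotype comparison, whereas 0 of 6 T cell markers and 0 of 5 smooth muscle markers were called in it. Of all genes tested, 1.99% were called lower and 0.822% higher in that comparison. In RNA of whole tissue, fewer cells of a type and less RNA per cell cannot be told apart. The 8 fibroblast markers summed to 157 to 193 FPKM in untreated libraries, 1044 to 1313 FPKM in colitic Tmem173fl/fl and 312 to 440 FPKM in colitic Tmem173iΔmye mice, and 5 of the 8 were called lower in the colitic genotype comparison. The 8 neutrophil markers summed to 44.1 to 105, 569 to 940 and 233 to 326 FPKM in the same sets, with 5 of 8 called lower, and Mmp8 was at 0 throughout untreated Tmem173iΔmye mice. Monocyte and macrophage markers summed to 92.6 to 153, 351 to 434 and 159 to 254 FPKM, with 3 of 8 called lower. Endothelial markers summed to 12.5 to 16.1, 55.2 to 75.3 and 21.1 to 41.2 FPKM, with 1 of 5 called lower. The red blood cell genes, 5 of 5 called lower, summed to 192 to 406 FPKM in colitic Tmem173fl/fl and 29.3 to 35.6 FPKM in colitic Tmem173iΔmye mice. Of the 9 colon epithelium markers, Slc26a3 was called higher. The study had named Slc26a3 among its upregulated genes from data that include these libraries, so its direction is not independent evidence. The share of counts from mitochondrial genes also moved with this comparison, at 2.17%, 2.03% and 2.73% in colitic Tmem173fl/fl replicates 1, 2 and 3 and 3.24%, 4.21% and 6.62% in colitic Tmem173iΔmye replicates 1, 2 and 5, against 3.01% to 5.001% in untreated libraries. The part of these cells and of this share in the levels of the family was not tested.

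By their profile over the 12 libraries (root mean square difference of centred log2(FPKM + 0.1), among 14559 genes with a mean of at least 1 FPKM), the genes nearest to Il6 were Ereg, an EGF receptor ligand, Igfbp5, an IGF-binding protein, and Adamts1, a matrix protease, at 0.36, 0.53 and 0.56. Nearest to Il11 were the neutrophil chemokine Cxcl2, Ereg and Dio2, a thyroid hormone deiodinase, at 0.78, 0.80 and 0.80. Osm was nearest to Cxcr2, a chemokine receptor of neutrophils, at 0.28, then Lgi2 at 0.35 and the activin subunit gene Inhba at 0.40. Osmr was nearest to the cholesterol transporter gene Abca1 at 0.26, Clip4 at 0.27 and Tgfbr3, a TGF-beta co-receptor, at 0.27. Lif was nearest to Tnfrsf12a, the receptor of the cytokine TWEAK, at 0.48, then Hist3h2ba and Fam84a, both at 0.49. These 12 libraries fall into 4 groups, so the profiles are not 12 independent points.

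The remaining ligands and receptors of the family were partly induced. Of 12 such genes, 10 were tested and 5 were called higher by DSS in Tmem173fl/fl mice. Of all genes tested, 14.9% were called higher in that comparison. Among the 5 called were Clcf1, a ligand of the ciliary neurotrophic factor receptor, the gene of that receptor, Cntfr, the IL-31 receptor gene Il31ra and the IL-27 subunit gene Il27. Il31ra met the 0.1 FPKM minimum only through the colitic libraries, so its call is no support for a rise of the list, and 4 of the other 9 tested were called. The Il27 call (edgeR adjusted p 0.0421) was lost by DESeq2 and without any 1 of the 6 libraries. Cntfr was at 0.449, 0.450 and 0.397 FPKM in untreated and 2.60, 4.33 and 1.67 FPKM in colitic Tmem173fl/fl mice, a log2 fold change of 2.75 (SE 0.38, edgeR adjusted p 0.000401). Clcf1 was at 7.53, 7.59 and 7.08 FPKM in colitic Tmem173fl/fl against 0.976 to 1.98 FPKM in untreated mice. In Tmem173iΔmye mice edgeR called 0 of the 10 with DSS, where DESeq2 called 2 higher, and at an unadjusted p under 0.05 with a log2 fold change of at least 1 in size 4 were higher and 1 lower. Without replicate 5 of the colitic Tmem173iΔmye group edgeR called 2. Between the colitic genotypes edgeR called 0, DESeq2 called 2 lower, and 2 passed the unadjusted p with that size. Cntfr was at 1.10, 0.706 and 0.809 FPKM in colitic Tmem173iΔmye mice, a log2 difference of -1.70 from colitic Tmem173fl/fl mice (SE 0.41, edgeR adjusted p 0.0646).

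Among 18 genes of signal transduction below gp130 and its brakes, Stat3, Socs3 and Socs2 were called higher with DSS in Tmem173fl/fl mice. These 3 and 1 called lower compare with 14.9% of all genes tested called higher and 7.61% lower. The count of 3 is near that share, so it shows no rise of the list as a whole. Socs3, the feedback inhibitor of gp130 signalling, was at 8.04, 5.63 and 5.84 FPKM in untreated Tmem173fl/fl and 6.40, 7.85 and 9.37 FPKM in untreated Tmem173iΔmye mice. Colitic libraries were at 125, 95.9 and 116 FPKM in Tmem173fl/fl and 75.9, 45.5 and 19.3 FPKM in Tmem173iΔmye mice, so the colitic genotypes did not overlap and replicate 5 was lowest. Its log2 fold change with DSS was 4.13 (SE 0.20, edgeR adjusted p 9.27e-07) in Tmem173fl/fl and 2.55 (SE 0.41, edgeR adjusted p 0.0145) in Tmem173iΔmye mice. The call in Tmem173iΔmye mice was lost without any 1 of the untreated libraries, at adjusted p of 0.112 to 0.128 and log2 fold changes of 2.43 to 2.73. Between the colitic genotypes it was -1.24 (SE 0.42, edgeR adjusted p 0.149), and the interaction was -1.50 (SE 0.49, edgeR adjusted p 0.126), neither of which was called.

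Stat3, the main transcription factor of the family, was at 22.0, 21.4 and 22.8 FPKM in untreated and 40.6, 44.8 and 50.9 FPKM in colitic Tmem173fl/fl mice, a log2 fold change of 1.06 (SE 0.15, edgeR adjusted p 0.000362). This size lies close to the minimum of 1 and was 0.95, under it, without colitic replicate 3. The call was also lost with upper quartile scaling and with all 12 libraries fitted together. In colitic Tmem173iΔmye mice Stat3 was at 38.0, 37.7 and 29.8 FPKM, with a DSS effect of 0.82 (SE 0.19, edgeR adjusted p 0.0630) and a difference of -0.34 from colitic Tmem173fl/fl mice (SE 0.20, edgeR adjusted p 0.368). Jak1, a kinase bound to gp130, was at 36.4, 37.6 and 37.0 FPKM in colitic Tmem173fl/fl and 26.8 to 31.5 FPKM in untreated Tmem173fl/fl mice (log2 fold change 0.37, SE 0.14, edgeR adjusted p 0.0596). Between the colitic genotypes edgeR called 0 of the 18, DESeq2 called 1 higher and 1 lower, and 1 passed an unadjusted p under 0.05 with a log2 fold change of at least 1 in size. Of 4 genes for proteases that shed receptors and their regulators, 1 was called higher with DSS in Tmem173fl/fl mice, against 14.9% of all genes tested. It was Rhbdf1, a partner of Adam17 (1.46, SE 0.13, edgeR adjusted p 2.26e-05). This single call says little about the list. Adam10 and Adam17 were not called in any comparison.

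Of 32 genes known as STAT3 targets, 19 were called higher and 2, Birc5 and Ccnd1, lower with DSS in Tmem173fl/fl mice. Their median log2 fold change was 1.79. Of all genes tested in that comparison, 14.9% were called higher and 7.61% lower, with a median of 0.03. In Tmem173iΔmye mice the shares of all genes were 1.48% higher and 0.597% lower, with a median of 0.02. Of the 32 STAT3 targets, 10 were called higher there, with a median of 0.96. That count was 5, 2 and 2 without untreated replicates 1, 2 and 3, and 8, 8 and 17 without colitic replicates 1, 2 and 5. Saa3, an acute-phase protein, was at 430, 749 and 293 FPKM in colitic Tmem173fl/fl and 45.0, 51.7 and 15.6 FPKM in colitic Tmem173iΔmye mice, and no untreated library exceeded 6.37 FPKM. Lcn2, an iron-withholding antibacterial protein, was at 330, 391 and 164 FPKM against 31.6, 32.6 and 5.31 FPKM in the same colitic groups. Serpina3n, a protease inhibitor, averaged 1043 FPKM in colitic Tmem173fl/fl and 250 FPKM in colitic Tmem173iΔmye mice. In the colitic genotype comparison 1.99% of all genes tested were called lower and 0.822% higher. Of the 32 STAT3 targets, 10 were called lower in it and 1, the cell cycle gene Ccnd1 (1.10, SE 0.19, edgeR adjusted p 0.0267), higher.

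The genes called lower were Serpina3n, Saa3, Lcn2, the transcription factors Cebpb and Cebpd, the neutrophil proteins S100a8 and S100a9, the chemokines Cxcl1 and Ccl2 and the protease inhibitor Timp1. Saa3 fell by 3.70 (SE 0.52, edgeR adjusted p 0.0167), Lcn2 by 3.65 (SE 0.66, edgeR adjusted p 0.0293) and Cebpb by 1.88 (SE 0.21, edgeR adjusted p 0.00990) on the log2 scale. The count of 10 was 0 without replicate 1 of colitic Tmem173fl/fl, 1 without replicate 2 of colitic Tmem173iΔmye, 5 without replicate 2 or 3 of colitic Tmem173fl/fl, and 9 and 12 without replicates 5 and 1 of colitic Tmem173iΔmye. These genes answer to other signals as well, S100a8 and S100a9 are also neutrophil markers, and Il6, Cebpb, Cebpd, Ccl2, Cxcl1, S100a8 and S100a9 were singled out by the study from data that include these libraries, so their direction is not independent evidence.

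Of 10 genes for signals that induce IL-6 family cytokines, 6 were called higher with DSS in Tmem173fl/fl mice, against 14.9% of all genes tested. The 6 were the prostaglandin synthase gene Ptgs2 and the cytokine genes Il1a, Il1b, Csf2, Tgfb1 and Tgfb3. Csf2 met the 0.1 FPKM minimum only through the colitic libraries, so its call (edgeR adjusted p 0.0464) is no support for a rise of the list. That call was also lost by DESeq2 and without any 1 of the 6 libraries. Ptgs2 was at 120, 28.4 and 93.5 FPKM in colitic Tmem173fl/fl, 10.9, 10.2 and 4.27 FPKM in colitic Tmem173iΔmye and 1.94 to 3.47 FPKM in untreated mice, so that replicate 2 was lowest in colitic Tmem173fl/fl as it was for Il6, Il11, Osm and Lif. Its log2 fold change was 4.76 (SE 0.49, edgeR adjusted p 5.90e-05) with DSS in Tmem173fl/fl mice and -3.23 (SE 0.55, edgeR adjusted p 0.0264) between the colitic genotypes. Ptgs2, Il1a and Tnf were called higher with DSS in Tmem173iΔmye mice, against 1.48% of all genes tested. This count of 3 was 0 without any 1 of the untreated libraries and 2, 1 and 5 without colitic replicates 1, 2 and 5. Between the colitic genotypes Tgfb3 was also called lower (-1.11, SE 0.24, edgeR adjusted p 0.0475), whereas Il18, an epithelial cytokine of the IL-1 family, was called higher (2.004, SE 0.41, edgeR adjusted p 0.0423) at 50.7, 69.5 and 156 FPKM against 28.3, 17.1 and 25.3 FPKM. Without replicate 1 or 3 of colitic Tmem173fl/fl, or replicate 2 of colitic Tmem173iΔmye, 0 of these 10 genes were called between the colitic genotypes.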

How the data were processed

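RNA sequencing of polyA RNA from mouse colon gave 12 libraries, placed in 4 groups by their titles. Per the labels, the submitters' processing notes name CASAVA 1.8, fastp, HISAT2 2.0.5, featureCounts 1.5.0-p3, DESeq2 1.20.0 and the build GRCm38. The authors deposited whole-number counts per gene and FPKM values, which are those counts divided by gene length and a size set for each library. That size is not the plain total of the counts. The FPKM were 0.892 to 1.04 times the values that the totals would give, lowest in the colitic Tmem173fl/fl libraries (0.892 to 0.956). Their own fold changes, p-values and group means in the same table were not used. The chi-square per gene between replicates was 31.9 to 130, so no 2 libraries were alike within sampling noise.

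Genes with at least 0.1 FPKM in at least 3 of 12 libraries (24102 of 54532) were tested with edgeR 4.0.16 quasi-likelihood tests (TMM scaling, R 4.3.3) on the counts of the groups compared, and the interaction on all 12. Adjusted p-values are Benjamini-Hochberg over all genes tested, and calls also required a log2 fold change of at least 1 in size (adjusted p under 0.05). Each SE was derived from the log2 fold change and its F statistic. Levels are deposited FPKM with the SD over 3 libraries.

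The 9 members and the lists were chosen with earlier results of these data known. By rule, the 9 members, Jak1, Stat3 and Socs3, up to 6 called genes per list and comparison, the 3 nearest profiles of the ligands and Osmr, and Tmem173 and Lyz2 as checks were named. Beyond that rule, Birc5, Adam10, Adam17, Mmp8, Slc26a3, Xist and other called list genes were named after their values were seen. Some list genes are not reported here by name. Lyz2, the Cre locus, averaged 143, 70.9, 337 and 227 FPKM in the 4 groups in the order given. Alternatives were DESeq2 1.42.0, limma 3.58.1 on log2(FPKM + 0.1) and log2(FPKM + 1), other scalings, filters and thresholds, all libraries in one fit, a replicate block, each library left out and, chosen after the data were seen, a covariate for pancreas markers.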

Additional observations from a re-analysis of the deposited data

Results flagged for a closer look

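The interaction test called 0 of the 9 family genes but 11 genes of the accompanying lists (edgeR, Benjamini-Hochberg adjusted p under 0.05). It called 2.55% of all genes tested. The values are the log2 DSS effect in Tmem173iΔmye mice minus that in Tmem173fl/fl mice. Among STAT3 targets the difference was -4.73 for Saa3, -4.49 for Hp, -4.09 for Lcn2, -3.38 for Cxcl1, -3.02 for Timp1, -2.27 for Cebpb, -2.27 for Ccl2 and -1.53 for Cebpd. Ccnd1 differed by 1.21. Among inducers of the family, Ptgs2 differed by -2.74 and Il18 by 2.13. In the same test 4 of 8 fibroblast and 3 of 8 monocyte and macrophage markers had a called lower effect, as did 2 of 5 endothelial and 4 of 5 red blood cell markers. Of the 9 colon epithelium markers 2 had a called higher effect, and 0 of 8 neutrophil markers were called. The part of these cells in the differences was not tested. Over 23 other settings each, the call was lost in 13 for Ccl2, 12 for Ptgs2, 11 for Il18, 10 for Cebpd, 9 for Ccnd1, 2 for Hp and 2 for Saa3, and in 0 for Lcn2, Cxcl1 and Cebpb, and Timp1 was not counted in this way. Of the STAT3 targets 8 had a called lower effect, and 4 to 7 did so without any 1 of the 12 libraries except colitic Tmem173iΔmye replicate 1, without which 13 did. Groups of 3 libraries are too small for a formal outlier test.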

How the results depend on the processing

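Of 835 repeats of a member's log2 fold change under another setting, 755 kept their direction and their side of the threshold, 57 lost the call, 8 gained it and 15 changed direction. For DSS in Tmem173fl/fl mice 7 to 9 members were called under every setting. For DSS in Tmem173iΔmye mice 7 were called, 3 by limma at either pseudocount, and 3 to 7 with a library left out. Between colitic genotypes 3 were called, 0 by limma at either pseudocount, 0 with the pancreas covariate, and 0 to 5 with a library left out. In the interaction 0 were called, 2 at an unadjusted p, 1 without the filter, 1 by limma with a pseudocount of 1, and 0 to 1 with a library left out. Of the STAT3 targets, 10 were called lower between colitic genotypes, 2 by limma and 4 with the pancreas covariate, and 10 higher with DSS in Tmem173iΔmye mice, 3 by limma, 16 at an unadjusted p and 18 with the replicate block. The cause was not tested.

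With a replicate block the counts were 8, 7, 0, 3 and 0 in the 5 comparisons, and Il11, Il6 and Osm differed by -2.13, -1.98 and -1.69 between colitic genotypes. Same-numbered libraries did not deviate together (correlations of -0.08 to 0.11), so the numbers were not taken as pairs.

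Directions changed in the untreated genotype comparison, where leaving out a library gave -0.52 to 1.67 for Il11, -0.29 to 0.10 for Lif, -0.67 to 0.094 for Osm, -0.10 to 0.051 for Il6ra, -0.11 to 0.053 for Il6st and -0.11 to 0.13 for Lifr, which was -0.0040 with the pancreas covariate. In the interaction, leaving out a library gave -0.36 to 0.019 for Il11ra1 and -0.27 to 0.046 for Jak1, and Jak1 was 0.036 with the replicate block and 0.013 with the pancreas covariate. Untreated counts of Il6, Il11 and Osm were too few for a difference of a log2 unit between untreated genotypes to be detectable.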
